A study of Sus scrofa with 6 samples.

Results

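The outer 5 Mb at the low-coordinate and at the high-coordinate end of porcine chromosomes 1 to 12 was examined in the longissimus dorsi muscle of female Jinhua pigs, a Chinese breed. Pig chromosomes 1 to 12 carry an arm on both sides of the centromere, so both of their ends are distal, whereas the acrocentric chromosomes 13 to 18 have a centromere near 1 end. Methylated DNA immunoprecipitation sequencing (MeDIP-seq), in which sheared DNA is pulled down with an antibody against 5-methylcytosine and sequenced, had been carried out on 3 middle-aged pigs (MA, 7 years old) and 3 young pigs (Young, 0.5 years old), with 1 library of 50 bp paired-end reads per animal. Fragments were assigned by their midpoint to non-overlapping windows of 1 kb and scaled to the mean library total, and every window with its centre within 5 Mb of an end was taken, by position alone. This gave 120003 windows, 60000 at the 12 low ends and 60003 at the 12 high ends, of 2262470 in all (5.30%). The end of a chromosome is the end of its assembled sequence (build Sscrofa9.2), and telomeric repeats themselves were not measured.

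The ends of vertebrate chromosomes carry telomeric repeats, and the DNA just inside them, the subtelomere, is often rich in genes, CpG sites, segmental duplications and tandem repeats. Cytosine methylation in this region is laid down by the DNA methyltransferases, and it has been linked to the silencing of subtelomeric transcription and to the control of telomere length. The depth of MeDIP-seq rises with both the number of CpG sites in a window and the share of them that is methylated. CpG sites were not counted here, so these 2 parts of a difference in depth between regions cannot be told apart. No input DNA was used, so differences in copy number, between regions or between animals, cannot be told apart from methylation either. This holds for all windows, blocks and ends below.

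The libraries held 34801285 to 44341673 fragments. The third MA library (MA 3) and the first young library (Young 1) stood apart from the other 4 across the ages: they were the lowest pair at 22 of the 24 ends and the highest pair in 8 of the 12 chromosome interiors. MA 3 stood at a median of 83.0% of the mean of the other 4 libraries over the ends (70.2 to 106.8%), and Young 1 at 88.3% (78.4 to 103.8%), while the other 4 differed among themselves by a median of 3.44% of their mean (0.981 to 16.9%, the widest at the low end of chromosome 6). In end blocks of 100 kb with a mean of 5 to 10 scaled fragments per 1 kb, MA 3 and Young 1 were on average -0.06 and -0.00053 from the 6-library mean on the log2 scale, and in those of 10 to 20 they were at 0.0091 and 0.013. From there the departure grew with depth, to -0.35 and -0.22 in end blocks of over 80. The 25 interior blocks of over 80 gave the same values, -0.35 and -0.22. At lower depth, ends and interior differed. In blocks of 40 to 80, MA 3 and Young 1 were at -0.22 and -0.13 at the ends, against -0.07 and -0.06 in the interior. In blocks of 20 to 40, they were at -0.09 and -0.05 at the ends, against 0.04 and 0.0073 in the interior. What set these libraries apart was not tested, and the main comparisons are also given without them. The folds of single ends and the gene blocks rest on all 6 libraries.

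The ends were more deeply covered than the rest of their chromosomes. Over the 12 low ends, the mean scaled depth was 44.7, 43.1 and 35.1 fragments per 1 kb in MA 1, MA 2 and MA 3, against 37.8, 44.5 and 45.3 in Young 1, Young 2 and Young 3. Over the 12 high ends, the MA libraries gave 37.4, 36.8 and 33.0 and the young libraries 34.1, 37.6 and 37.9. MA 3 and Young 1 were the lowest of their groups on both sides. In the interiors of the same chromosomes, all 6 libraries fell between 16.4 and 16.9. Averaged over chromosomes, the ends stood 2.15-fold above the interior (1.10 ± 0.13 on the log2 scale, SD, n = 6; p = 0.03125 by exact sign-flip permutation over libraries, two-sided as all such tests below, and as low as 6 libraries allow), the low ends 2.33-fold and the high ends 1.98-fold. Without MA 3 and Young 1, the mean of the other 4 was 2.28-fold. The ends made up 11.8% of all fragments, from 10.3% in MA 3 to 12.6% in Young 3.

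**Figure D1:**
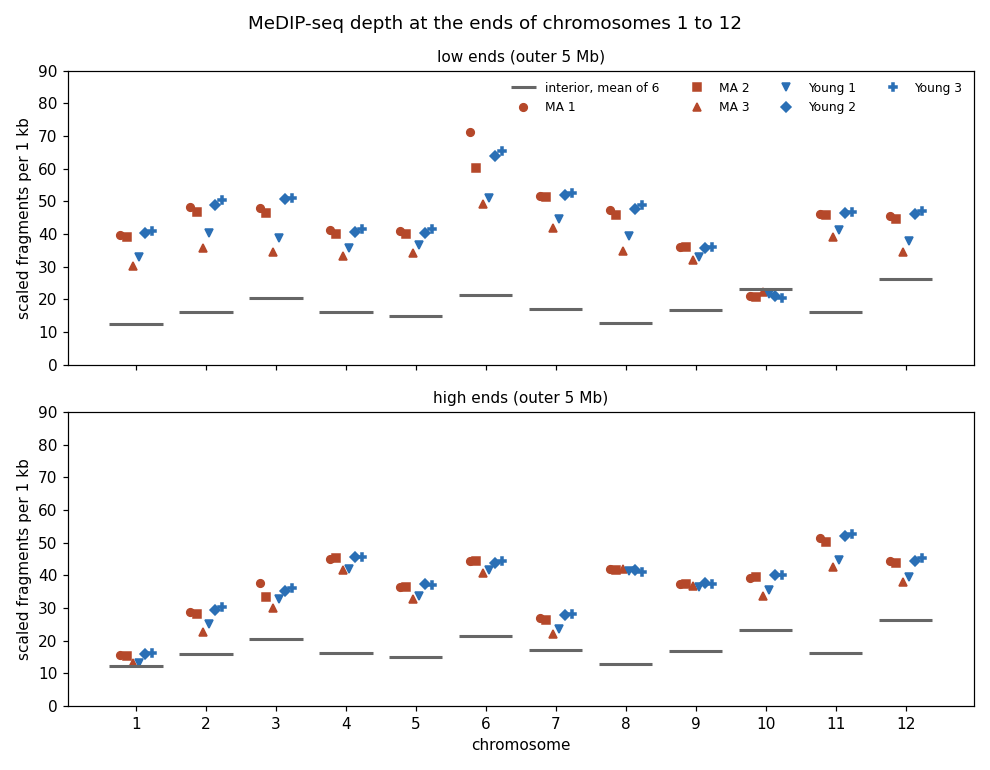
Mean scaled fragments per 1 kb window (y) at the low ends (top) and high ends (bottom) of chromosomes 1 to 12 (x), with 1 point per library (red, MA; blue, Young) and a grey bar for the interior of the same chromosome. All points of 23 ends lie above their bar, the low end of chromosome 10 lies below it, and MA 3 and Young 1 form the lowest pair at 22 ends.

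Of the 24 ends, 23 were above the interior of their chromosome in all 6 libraries (adjusted p = 0.03125 for each, exact sign-flip permutation tests with Benjamini-Hochberg adjustment over 24 ends), and 16 were more than 2-fold above it. The low end of chromosome 8 led with 3.39-fold (2.58 to 3.90 over the libraries), followed by its own high end with 3.23-fold (3.09 to 3.34) and the high end of chromosome 11 with 3.02-fold (2.57 to 3.30). The ranges of these 3 ends overlapped. The low end of chromosome 10 was the exception. Its depth was 20.9, 20.7 and 22.2 for MA 1 to MA 3 against 21.6, 21.1 and 20.6 for Young 1 to Young 3, and it reached 0.91-fold of its interior (0.89 to 0.93). Here MA 3 was the highest library.

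The 2 ends of a chromosome often differed. The low end was the more deeply covered in all 6 libraries on 6 chromosomes (1, 2, 3, 5, 6 and 7), and the high end on 4 (4, 9, 10 and 11), each with an adjusted p = 0.0375 over 12 chromosomes (exact sign-flip permutation tests). Chromosome 1 showed the widest gap, with 37.2 scaled fragments per 1 kb at its low end and 14.9 at its high end, a ratio of 2.49 (2.32 to 2.54). Chromosome 7 followed with a ratio of 1.90 (1.86 to 1.96). On chromosome 10 the order was turned, and the high end was 1.79-fold above the low end. On chromosomes 8 and 12 the low end was higher in 4 of 6 libraries and lower in MA 3 and Young 1. Averaged over the 12 chromosomes, the low ends were 1.17-fold above the high ends (0.23 ± 0.05 on the log2 scale, SD, n = 6; exact sign-flip permutation p = 0.03125), and 1.20-fold without MA 3 and Young 1. This ratio depended on the width of the ends, with a log2 value of 1.14 over the outer 1 Mb and 0.13 over the outer 10 Mb. It also depended on the summary of the windows, with 0.57 for the median over windows in place of the mean. The sign-flip tests here and elsewhere cover the spread between libraries and not that between chromosomes. By chromosome, the log2 ratio of low to high end ran from -0.84 (chromosome 10) to 1.32 (chromosome 1).

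Over the outer 5 Mb, the gradient with distance ran in opposite directions on the 2 sides. At the low ends, the mean depth was 53.3 scaled fragments per 1 kb in the outermost 1 Mb (2.73-fold of the interior), 44.0 in the next and 30.2 between 4 and 5 Mb (1.62-fold). At the high ends, it was 30.6 in the outermost 1 Mb (1.24-fold), rose to 43.4 between 3 and 4 Mb (2.31-fold) and was 34.5 between 4 and 5 Mb (1.90-fold). Both sides were still above the interior between 9 and 10 Mb, at 1.63-fold and 1.37-fold. The slope of log2 depth on distance was -0.14 per Mb at the low ends (-0.20 to -0.04 over the libraries) and 0.21 per Mb at the high ends (0.19 to 0.23), each with an exact sign-flip permutation p = 0.03125 (n = 6). The slope at the low ends was flattest in MA 3 (-0.04) and Young 1 (-0.09), and its mean without both was -0.18, beside 0.20 at the high ends. Over the outer 10 Mb, the slope was -0.08 per Mb at the low ends, and at the high ends it was 0.0089 per Mb and no longer passed (exact sign-flip permutation p = 0.125).

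**Figure D2:**
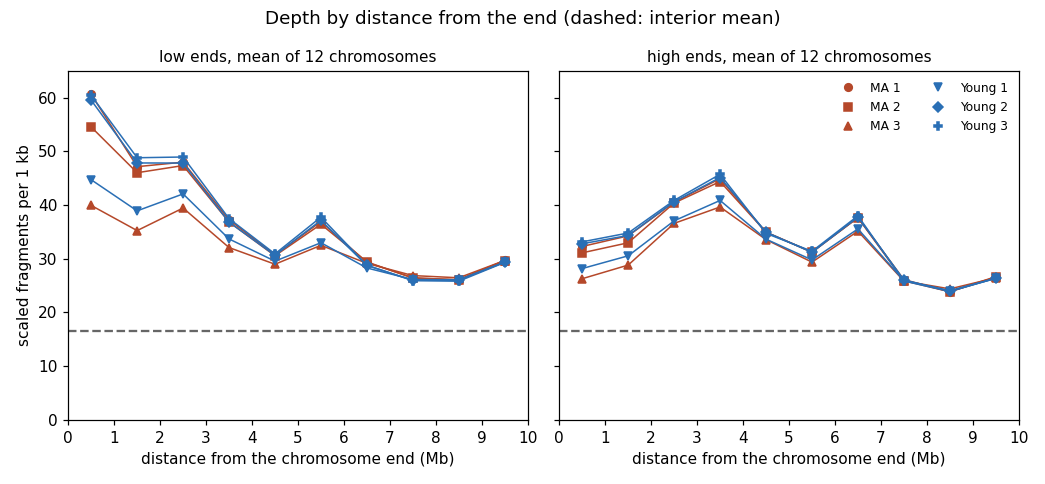
Mean scaled fragments per 1 kb (y) in successive 1 Mb steps from the low ends (left) and the high ends (right) of chromosomes 1 to 12 (x, distance in Mb), with 1 line per library (red, MA; blue, Young) and the interior mean dashed. Depth falls from the outermost 1 Mb at the low ends and peaks between 3 and 4 Mb at the high ends, and MA 3 and Young 1 lie under the other lines in the outer 4 Mb.

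The single ends did not all follow the mean of their side. Depth fell inward in all 6 libraries at 8 low ends and 3 high ends (4, 5 and 12), and rose inward in all 6 at 1 low end (chromosome 7) and 7 high ends (1, 2, 3, 7, 8, 9 and 10), with mixed signs at the other 5 ends. The steepest fall was at the low end of chromosome 6, -0.52 log2 units per Mb, and the steepest rise at the high end of chromosome 2, 0.66 per Mb. The outermost 1 Mb of the high end of chromosome 1 held 1.76 scaled fragments per 1 kb and that of chromosome 10 held 5.67. That of the low end of chromosome 11 held 73.1 and that of the low end of chromosome 6 held 132.2. The latter includes the block chr6:200001-300000, with 719.7, which also enters the mean of the outermost 1 Mb of the low ends given above. With windows above 400 left out, the slope at the low ends was -0.14 per Mb. Of 1200 end bins of 100 kb, 75.6% lay above the interior mean and 51.7% more than 2-fold above it, against 38.8% and 8.27% of 13918 interior bins. The number of bins above the mean, of 50 per end, ran from 16 at the low end of chromosome 10 and 19 at the high end of chromosome 1 to 48 at the low ends of chromosomes 2 and 8 and the high end of chromosome 11.

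**Figure D3:**
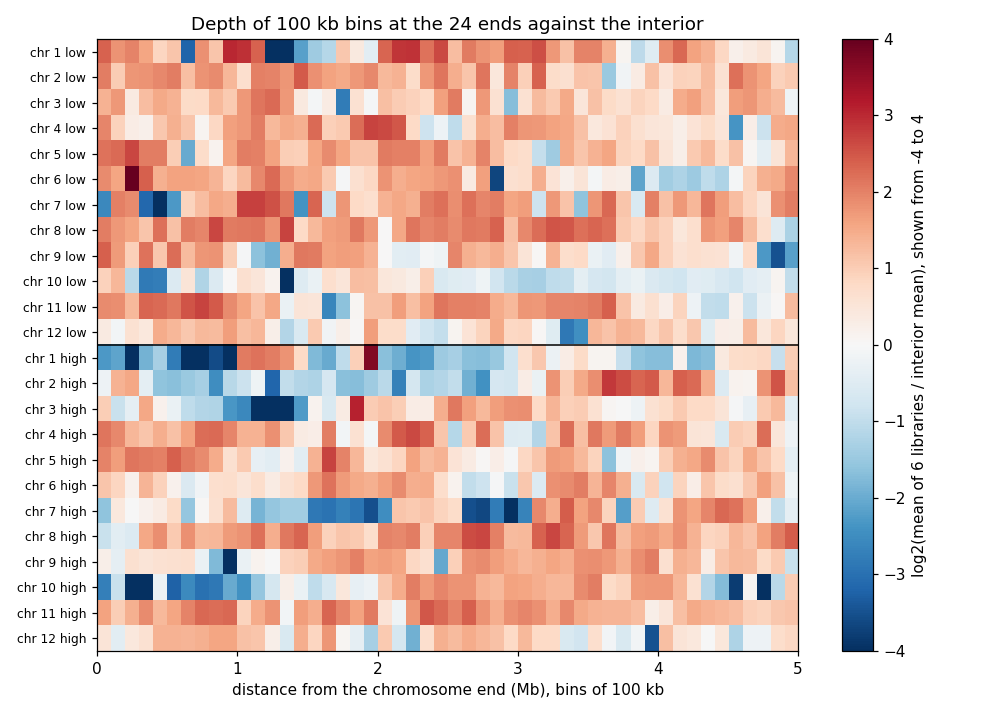
Depth of 100 kb bins as the log2 ratio of the 6-library mean to the interior mean of the same chromosome (colour, from -4 in blue to 4 in red), for the 12 low ends (above the line) and the 12 high ends (below it), by distance from the end in Mb (x). Bins above the interior make up 75.6% of the map, and runs of nearly uncovered bins stand in the outer 1.5 Mb of the high ends of chromosomes 1, 3 and 10.

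Within the ends, depth was spread over many windows. The median window held 20.9 scaled fragments at the ends and 7.16 in the interior, and the share of windows with no fragment in any library was 11.5% in both. The ends, with 5.30% of the windows, held 34.5% of the 22625 deepest windows (the top 1%) and 16.7% of the top 10%. The fragments at the ends did not differ detectably in length from those of the interior, with a difference of -0.55 bp (-1.99 to 1.01 over the libraries; exact sign-flip permutation p = 0.3125, n = 6). Intervals repeated with the same start and end were fewer at the ends (0.58%) than in the interior (1.64%), in all 6 libraries (exact sign-flip permutation p = 0.03125).

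A few windows carried much of the depth of single ends. Of 348 windows in the genome with a mean above 400 scaled fragments, 67 lay at the ends, 26 of them in the low end of chromosome 6 between 240 and 312 kb. The deepest, chr6:295001-296000, held 20441, 15409 and 15872 for the MA libraries against 15034, 17154 and 18693 for the young ones, so the groups overlapped. Together these 26 windows made up 23.4% of the fragments of that end (19.8 to 31.1%), and MA 1 was the highest library in 25 of them. With windows above 400 left out both at the end and in the interior, the end stood 2.17-fold above its interior instead of 2.78-fold. At the high end of chromosome 1, 10 such windows made up 17.6% of the fragments. With windows above 400 left out on both sides of the ratio, the end was at 1.03-fold instead of 1.21-fold. Without its 10 windows, the end held 12.29 scaled fragments per 1 kb, beside 12.33 in the whole interior. In 4 of those, at chr1:294457001-294461000, the highest library exceeded the lowest, MA 3, by 7.82-fold to 9.76-fold. The high end of chromosome 3 held 18, among them chr3:121729001-121730000 where MA 1 had 2690, MA 2 and MA 3 had 397 and 570, and the young libraries had 2214, 2127 and 2208. With all windows above 400 left out, the log2 ratio of the ends to the interior was again 1.10.

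Among blocks of 100 kb with a mean of at least 10 fragments, the deepest at the ends was chr6:200001-300000, which averaged 719.7 scaled fragments per 1 kb, followed by chr3:121700001-121800000 with 171.3 and chr1:293500001-293600000 with 152.2. The 3 shallowest were chr1:294800001-294900000 at the high end of chromosome 1 and chr1:1200001-1300000 at its low end, with 0.15 each, and chr3:122400001-122500000 with 0.24. None of the 6 passed the test between the ages, with adjusted p-values from 0.361 to 0.947 (limma).

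The ends of chromosomes 1 to 12 were set beside those of the acrocentric chromosomes, whose high-coordinate ends are distal. The distal acrocentric ends stood 2.92-fold above their interiors, and the ends of chromosomes 1 to 12 were 0.44 lower on the log2 scale (0.74-fold), with all 6 libraries between -0.45 and -0.43 (exact sign-flip permutation p = 0.03125, n = 6). MA 3 (-0.436) and Young 1 (-0.434) were the highest pair here, and the other 4 lay between -0.449 and -0.443. The test covers the spread between libraries and not that between chromosomes. Single distal acrocentric ends ran from 2.03-fold (chromosome 18) to 4.05-fold (chromosome 15). Those of chromosomes 1 to 12 ran from 0.91-fold to 3.39-fold, so the sets overlapped. The log2 values above are differences between ratios of ends to interiors. The mean scaled depth itself was 38.9 fragments per 1 kb at the ends of chromosomes 1 to 12 and 44.9 at the distal acrocentric ends. The log2 difference depended on the width of the ends, with -0.72 over the outer 1 Mb and -0.24 over the outer 10 Mb. With the median over windows in place of the mean, it was -0.69. The low-coordinate, centromere-side acrocentric ends were at 0.92-fold of their interiors, and the ends of chromosomes 1 to 12 were 2.34-fold above them (1.23 ± 0.12 on the log2 scale, SD, n = 6; p = 0.03125, exact sign-flip permutation test). Chromosome 18 went against its side: its low end held 39.6 to 47.6 scaled fragments per 1 kb, 2.29-fold of its interior, while the low ends of chromosomes 13 to 17 lay between 0.48-fold and 1.22-fold. Without chromosome 18, the difference was 1.49 on the log2 scale. The orientation of chromosome 18 in this build was not checked, so its low end may not be the centromere side. Its high end, the lowest of the distal acrocentric ends at 2.03-fold, may then not be distal. The comparison with the distal ends was not repeated without chromosome 18. Without MA 3 and Young 1, the difference from the centromere-side ends of chromosomes 13 to 18 was 1.30.

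The depth of the ends was then compared between the MA and young pigs. Averaged over the 12 ends on the log2 scale, the low ends were 0.056 lower in the MA pigs (exact permutation p = 0.6, two-sided, n = 3 per group) and the high ends 0.036 lower (exact permutation p = 0.5). With 3 against 3, the smallest p-value possible is 0.1. Both differences were smaller than the spread between animals of 1 age, with SDs of 0.17 and 0.13 at the low ends and 0.11 and 0.092 at the high ends. Without MA 3 and Young 1, they were -0.03 and -0.03. The relation to age turned with 1 library, since without MA 3 alone the MA pigs were higher by 0.04 at the low ends and by 0.02 at the high ends.

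By end, the mean was lower in the MA pigs at 20 of 24, from -8.32% at the low end of chromosome 3 to 1.05% at the high end of chromosome 8, and the smallest exact permutation p-value was 0.2. At no end did the 3 MA and the 3 young pigs separate. Of the 1205 tested 100 kb blocks at the ends, the groups separated with the MA pigs lower in 49 (4.07%, against 9.52% of all 22588 tested blocks) and higher in 83 (6.89%, against 7.24%). At the low end of chromosome 3, the MA libraries held 48.1, 46.4 and 34.4 and the young ones 38.8, 50.6 and 51.2 scaled fragments per 1 kb, so MA 1 and MA 2 lay between Young 1 and Young 2. At the high end of chromosome 8, all 6 libraries lay between 41.1 and 41.9. Relative to the interior of the chromosome, 22 of the 24 ends were lower in the MA pigs over all 6 libraries. Without MA 3 and Young 1, which were set apart after their values were seen, the log2 differences between the ages had a median of -0.03 and a range of -0.11 to 0.01 over the ends. MA 1 and MA 2 were then both below Young 2 and Young 3 at 15 of 24 ends and both above at 0. These ends come from the same libraries, so they are not independent. Averaged over the low ends, the age difference in this setting had an exact permutation p = 0.667. Over the high ends, the exact permutation p was 0.333, the smallest possible with 2 against 2. Of the much smaller 100 kb blocks of the genome, 28.3% had them both below. Regions as wide as the ends were not counted elsewhere, so these counts do not set the ends apart from the genome. The slopes did not separate the ages, with -0.13 per Mb for MA against -0.16 for Young at the low ends (exact permutation p = 0.5) and 0.22 and 0.20 at the high ends (p = 0.3, exact permutation test).

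**Figure D4:**
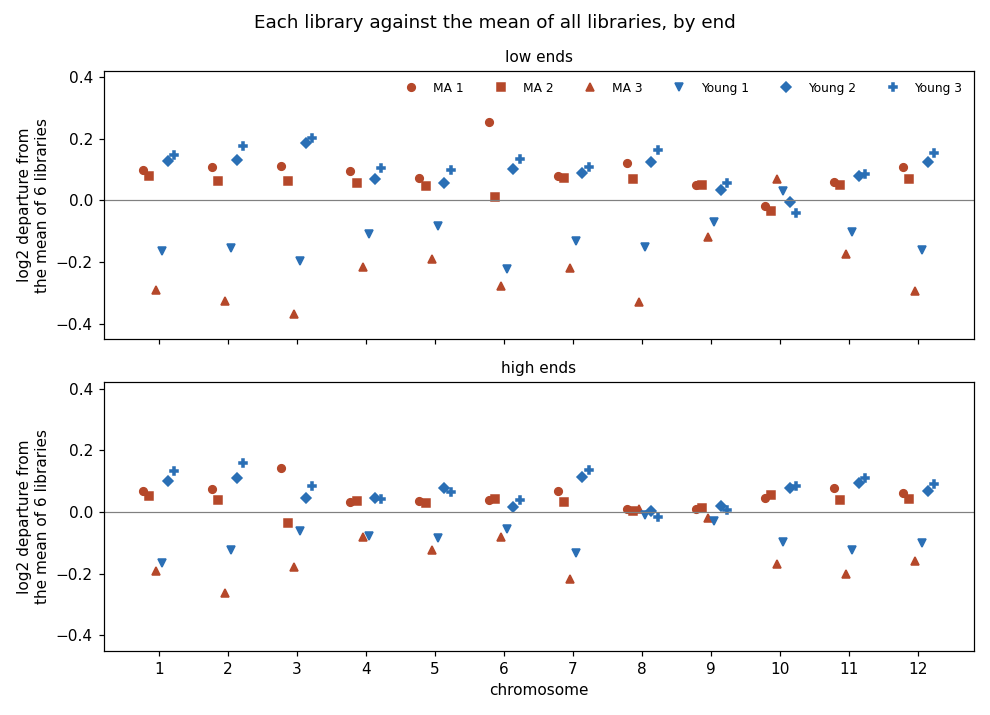
Departure of each library from the mean of the 6 libraries on the log2 scale (y) at the low ends (top) and high ends (bottom) of chromosomes 1 to 12 (x), with 1 point per library (red, MA; blue, Young). The lowest points are MA 3 and Young 1, 1 of each age, at 22 of 24 ends.

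Single windows were compared between the ages with limma, which fits each window and shares the estimate of the spread across windows. Of 956310 windows of 1 kb on the placed chromosomes that averaged 10 or more fragments, 25 were called (0.00261%) at an adjusted p below 0.01. Of 74651 windows tested at the ends, 3 were called (0.0040%), 1 lower and 2 higher in the MA pigs, and the groups did not overlap in any of them. None of the 3 passed with scaling to the interior median (smallest adjusted p at the ends 0.0105, limma) or with the replicate number as a block (0.0918), and no window of 500 bp at the ends passed. At chr5:2947001-2948000, the MA pigs had 6.25, 4.13 and 5.11 scaled fragments and the young pigs 51.1, 49.0 and 47.8. The young pigs all lay far above the MA pigs, with a log2 difference of -3.04 ± 0.26 (SE; adjusted p = 0.0050, limma). At chr9:4170001-4171000, the MA pigs had 40.2, 33.0 and 40.9 and the young pigs 1.82, 2.09 and 2.28, a log2 difference of 3.67 ± 0.32 (SE; adjusted p = 0.0062, limma). The gene listed nearest to it is ENSSSCG00000014737. At chr9:130501001-130502000, at the high end, the MA pigs had 54.5, 66.0 and 59.3 and the young pigs 8.21, 8.35 and 7.97, with a log2 difference of 2.73 ± 0.22 (SE; adjusted p = 0.0050, limma).

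Over all tested windows at the ends, groups that did not overlap were not more frequent than over the whole genome, with the MA pigs lower in 5.26% (5.83% of all windows) and higher in 6.5% (7.51% of all windows). The median log2 difference was -0.03 at the ends, -0.06 at the low and -0.01 at the high ones, and 54.9% of the windows at the ends were lower in the MA pigs, against 47.6% of all. These turned without MA 3, when the median at the ends was 0.04 and 43.5% were lower, against 49.1% of all. With scaling to the interior median, the median at the high ends was 0.0086, while that over all windows rose from 0.018 to 0.039. Under that scaling, 51.7% of the windows at the ends were lower in the MA pigs, against 44.8% of all. The calls were few and depended on single libraries, from 0 to 20 at the ends when 1 library was left out. The 20 came without MA 3 and were 0.0268% of the windows tested at the ends, against 0.0222% of all windows. Without MA 3 and Young 1, 156 windows at the ends were called of 74071 (0.211%), 91 of them lower in the MA pigs, against 0.138% of all windows.

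Of the 1205 blocks of 100 kb tested at the ends, 3 were called (0.249%, against 0.0797% of 22588 blocks), and all 3 lay at the high end of chromosome 1, with the MA pigs higher. At chr1:293200001-293300000, the block held 283, 275 and 552 scaled fragments for MA against 84.8, 62.6 and 64.9 for Young, a log2 difference of 2.31 ± 0.24 (SE; adjusted p = 0.0052, limma). The adjoining block chr1:293300001-293400000 held 362, 308 and 615 against 107, 107 and 92.2 (2.00 ± 0.21, SE; adjusted p = 0.0052, limma). At chr1:292900001-293000000, the values were 490, 503 and 813 against 209, 172 and 221 (1.55 ± 0.18, SE; adjusted p = 0.0074, limma). In each block the lowest MA library was above the highest young one, and MA 3, the lowest library at most ends, was the highest. The listed position in the promoter of OR5M3, which encodes an olfactory receptor, lies in the second of these blocks. These blocks are shallow: the interior of chromosome 1 averaged 12.3 scaled fragments per 1 kb, and the stretch that holds them 3.53. When Young 2 or Young 3 was left out, limma called 0 blocks, both at the ends and over the whole genome. At the ends, 51 and 53 blocks then had an unadjusted limma p under 0.05 (4.2% and 4.4%), against 6.04% and 7.45% of all blocks. With all libraries, 75 end blocks did so (6.22% of the end blocks and 10.3% of all blocks).

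The 3 blocks lie in a stretch of 7 adjoining blocks, chr1:292800001-293500000, in which all 3 MA libraries were above all 3 young ones in 7 of 7. This stretch was chosen after its values were seen. Its mean depth was 4.29, 3.91 and 7.06 scaled fragments per 1 kb for MA (5.09 ± 1.72, SD, n = 3) and 2.14, 1.87 and 1.94 for Young (1.98 ± 0.14, SD, n = 3), a ratio of 2.57. In the 500 kb on its outer side, the depth was 40.4 ± 3.75 for MA and 38.8 ± 1.57 for Young, and in the 500 kb on its inner side 12.1 ± 0.55 and 12.5 ± 0.62 (SD, n = 3 each).

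A second stretch, at the high end of chromosome 7 (chr7:133400001-134900000, 15 blocks, also chosen after its values were seen), split the libraries in another way. In 9 of its 15 blocks, MA 1, MA 2 and Young 1 were all below MA 3, Young 2 and Young 3. In the block chr7:134400001-134500000, the values were 24.1 and 27.9 scaled fragments in MA 1 and MA 2 and 20.1 in Young 1, against 213.8 in MA 3 and 273.3 and 282.2 in Young 2 and Young 3. The split follows neither the ages nor the pair of libraries that stood apart elsewhere. In the 5 deepest blocks in the middle of the stretch, with means of 2633 to 3820 scaled fragments, it was not seen. No input DNA was used here, so a difference in methylation and a difference in copy number between the animals cannot be told apart in either stretch.

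**Figure D5:**
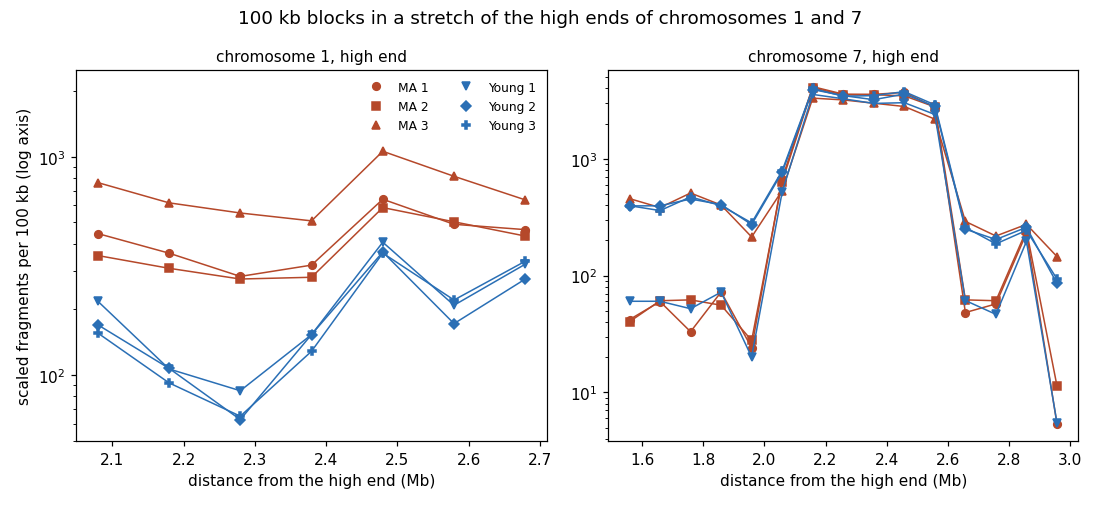
Scaled fragments per 100 kb block (y, log axis) by distance from the high end (x, Mb) in the stretches on chromosome 1 (left) and chromosome 7 (right), with 1 line per library (red, MA; blue, Young). On chromosome 1 the 3 MA lines lie above the 3 Young lines in 7 of 7 blocks, and on chromosome 7 MA 1, MA 2 and Young 1 lie below the other 3 in 9 of 15.

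Without MA 3 and Young 1, 59 of the 1205 end blocks were called, 48 lower in the MA pigs (3.98%, against 1.42% of all blocks) and 11 higher (0.913%, against 0.443%). The 48 lower blocks were spread over 17 ends, 24 at low and 24 at high ends. Taken over all 6 libraries, however, the groups overlapped in all but 11 of the 48, and Young 1 lay below an MA library in each of those 37. The 8 with the largest log2 difference were those of the split on chromosome 7. Of the 11 higher blocks, 10 did not overlap over 6 libraries, among them the 7 on chromosome 1. Overlap over 6 libraries was not counted for the called blocks of the whole genome, so these counts do not set the ends apart from it.

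Named genes were taken from the study's list of differentially methylated regions (DMRs), only part of which was used and which was chosen on these samples, so its direction is not independent evidence. The list held 106 names at 22 of the 24 ends, and the 36 genes with the most listed positions, up to 2 per end, fell into 35 blocks. The block was above the interior of its chromosome for 32 of the 36 and more than 2-fold above it for 23, beside 75.6% and 51.7% of all end bins. For 22 of 36 the mean was lower in the MA pigs, a share close to the 59.8% of all end blocks and the 53.6% of all blocks that were lower, and 1 block, that of OR5M3, passed the test, beside 0.249% of the end blocks.

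The block of DSP, the desmosomal protein desmoplakin (exonic position, chr7:4900001-5000000), was 4.15-fold above the interior, and lowest in MA 3 with 65.1. That of COL22A1, a collagen of the myotendinous junction (promoter position, chr4:2800001-2900000), stood at 2.34-fold. That of MYO16, an unconventional myosin with 8 listed positions, the first of them intronic (chr11:76300001-76400000), stood at 2.58-fold. The ages overlapped in all 3 blocks, by the least in that of MYO16, where the lowest MA library had 40.7 and the highest young library 41.0, and none passed the test (adjusted p from 0.535 to 0.979, limma).

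The block of FBXO38, an F-box protein gene at the high end of chromosome 2, was the deepest against its interior, at 5.87-fold (5.09 to 6.24). The blocks of SAPS3, a regulatory subunit of protein phosphatase 6, and of HPX, the heme carrier hemopexin, stood at 4.42-fold and 3.82-fold. The block of ARHGEF7, an exchange factor for small GTPases, held 56.8, 56.4 and 30.9 in MA 1 to MA 3 and 47.0, 67.8 and 67.6 in Young 1 to Young 3. The groups overlapped there, and the block did not pass (adjusted p = 0.592, limma). The block of TIMP2, an inhibitor of matrix metalloproteinases, was near the interior at 1.03-fold. The block of ADRBK1, the G protein-coupled receptor kinase (chr2:3700001-3800000), had 12.9, 12.5 and 11.9 for MA and 16.9, 16.7 and 15.9 for Young. The groups did not overlap there, and the log2 difference of -0.41 ± 0.05 (SE) fell just outside the threshold (adjusted p = 0.0107, limma). In the block of TNRC6B, a scaffold of microRNA silencing (chr5:4300001-4400000), the MA pigs had 33.1 to 34.5 and the young pigs 40.3 to 41.3 (-0.27 ± 0.05, SE; adjusted p = 0.041, limma). Of the 2 olfactory receptor genes, OR51Q1 at the low end of chromosome 9 lay in a block of 26.0 to 30.8, 1.73-fold of its interior, and OR5M3 in the shallow stretch of chromosome 1 at 0.17-fold.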

How the data were processed

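The authors aligned the reads to Sscrofa9.2 with SOAP2, state that ambiguous and repeated reads were dropped, and deposited 1 table of fragment positions for each of the 6 libraries. Each file still held 471491 to 706017 repeats of an interval with the same start and end, which were kept. The deposited values are positions, a unit with no counts or normalization. Whether starts count from 0 or 1 is not stated, and coordinates are exact to within 1 bp. Chromosome lengths were the largest end over all libraries. The study's methods compared MeDIP-seq depth between ages after scaling to total fragments, and the same scaling was used here, to the mean total.

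Ratios, slopes and age differences were tested over libraries by exact permutation. Age was tested in windows of 1 kb and in blocks of 100 kb, each with a mean count of at least 10, on log2(scaled count + 1) with limma 3.58.1 (R 4.3.3; trended eBayes, Benjamini-Hochberg over all tested, threshold 0.01). Count models were not run, since no deposited column holds counts; those used were made here from the positions. Steps were tested on simulated data (Python 3.11.15, numpy 2.4.6). Named windows and blocks were those with an adjusted p under the threshold and groups apart, up to 5 per direction, and the 3 deepest and 3 shallowest blocks. Genes were the 2 per end with the most positions in the part of the study's DMR list used here, described by the block of their first position. One of these genes is not reported here. A listed gene had to lie within 10 kb of a window. Members and lists were chosen with earlier results of these data known. Same-numbered libraries correlated at -0.59, 0.41 and -0.61 in their departures from the group means. MA 3 and Young 1 correlated at 0.60, and these departures largely set that pair against the other libraries. Whether the replicate numbers pair the samples therefore cannot be told from them. The alternatives were other scalings, widths, windows, filters, pseudocounts and thresholds, a replicate block, and leaving out libraries. Depth limits single windows, whose counting error is large beside that of blocks. The genome sequence was not used here, so no CpG counts were made.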

Additional observations from a re-analysis of the deposited data

How the results depend on the processing

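The direction of the 6 comparisons by position held under every alternative run. Leaving out 1 library gave 1.08 to 1.15 for the ends against the interior (log2), 0.22 to 0.25 for low against high ends, -0.16 to -0.13 and 0.20 to 0.21 per Mb for the slopes at low and high ends, -0.44 to -0.44 against distal and 1.21 to 1.26 against centromere-side acrocentric ends. With 5 libraries the exact sign-flip test cannot go below p = 0.0625, so none of these could pass. The slope at the high ends was 0.0089 per Mb over the outer 10 Mb (exact permutation p = 0.125).

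The age difference ranged from -0.133 to 0.0444 at the low ends and from -0.0891 to 0.0242 at the high ends when 1 library was left out, and it turned positive without MA 3 (0.0444 and 0.0242). With the replicate block it was -0.0556 and -0.0362 (exact sign-flip p = 0.75 for both, where 3 pairs cannot go below 0.25). Whether the replicate numbers pair the samples could not be told.

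The 3 windows called at the ends became 0 with scaling to the interior median, with the replicate block, with windows of 500 bp and with a mean count of at least 30, 8 with windows of 5 kb (0.0388% of the end windows tested, against 0.0136% of all), 8 with a pseudocount of 5 (0.0107%, against 0.00847%), 20 at a threshold of 0.05 (0.0268%, against 0.0218%), 26 with a mean count of at least 1 (0.0262%, against 0.0112%), and 0 to 20 without 1 library (limma). The windows chr5:2947001-2948000 and chr9:4170001-4171000 average under 30 fragments, so at that limit they were left out before the test. Where none was called, 3021 to 6955 windows had an unadjusted p under 0.05, 4.54 to 7.41% of those at the ends against 4.98 to 7.64% of all, and the share at the ends was the higher only without MA 2. The 3 blocks became 4 with the replicate block (0.332%, against 0.0487%), 10 at 0.05 (0.830%, against 0.39%) and 0 to 11 without 1 library (11 without MA 3, 0.913% against 0.456%). Leaving out MA 3 and Young 1, chosen after seeing the data, gave 156 windows and 59 blocks (4.90%, against 1.86%). The causes were not tested. Also chosen after seeing the data were leaving out windows above 400 and chromosome 18, and slopes of log2(mean + 1).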
